A study of Gallus gallus with 6 samples.

Results

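The cadherin, protocadherin, claudin, zonula occludens, alpha- and delta-catenin genes measured on the array, with OCLN, EPCAM, ESAM, SNAI1 and SNAI2, were compared between Hb-eGFP+ cells and RFP+ control cells of the early chick embryo. Members were chosen by gene symbol, and 61 of the 13051 genes with a probe set of their own matched. Of 80 matching symbols in the RefSeq gene table, 19 had no such probe set here. Where a gene had several probe sets, the brightest by mean log2 over the 6 arrays stands for it. The embryos had received 2 plasmids, Hb-eGFP and pCAGGS-RFP, by electroporation at HH3, and cells were taken at HH5-6 from 3 pools of 4 embryos. In Hb-eGFP, the fragment of the chick Cerberus regulatory region from -255 to -204 bp drives eGFP through the minimal promoter of human beta-globin, whereas the CAGGS promoter of pCAGGS-RFP is active in most cell types. Hb-eGFP+ cells were those sorted for eGFP. RFP+ control cells were electroporated cells sorted as RFP+ without eGFP, a mixture of tissues collected alongside them from the same pools. There were 3 arrays in each group, and the embryos behind both groups had received both plasmids. Neither sort shows that each cell held both, and a control cell may have lacked Hb-eGFP. No strain was given. For this experiment the labels and the text of the study name different versions of the Cerberus fragment, and only the labels' coordinates are given above.

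Cadherins are calcium-dependent adhesion proteins whose outer domains bind cadherins of the neighbouring cell and whose inner tails hold catenins, which link them to actin. Cells with different cadherins tend to sort apart, and cells that leave an epithelium at gastrulation often exchange the epithelial cadherin CDH1 for others. Claudins and occludin form tight junctions, which seal the space between cells, and the zonula occludens proteins anchor them inside the cell. Endothelial cells, which line vessels and arise with blood cells from hemangioblasts, have a junctional set of their own that includes the cadherin CDH5 and the claudin CLDN5.

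The array medians lay between 87.7 and 91.1 in signal intensity, the linear model-based index that was deposited. The reporter itself followed the labels, since the GFP probe set read 16931 to 17346 in Hb-eGFP+ cells and 836 to 992 in RFP+ control cells. Other reporter probe sets, for sequences that these cells should not carry, had a median of 34.1 and a 95th percentile of 114. The GFP readings of RFP+ control cells lay above 114, so the control was not free of GFP signal, and why was not tested. Control means of the hemangioblast markers TAL1 (1673) and FLI1 (2630) were above 114 as well. A group mean above that percentile was reached by 34 of the 61 members, and the other 27 gave signals that cannot be told from probe background. Hemangioblast and endothelium markers were higher in Hb-eGFP+ cells for 8 of 8, whereas 7 of 8 neuroectoderm, 6 of 7 paraxial mesoderm and 6 of 7 primitive streak markers were lower. Of all genes, 9.19% were higher and 10.7% lower by the test given below. With the mean over probe sets, 7 of the 8 hemangioblast and endothelium markers were higher. The call of KDR (log2 fold change 0.41) rested on its brightest probe set, as none of its further probe sets was called. These counts are not independent evidence. The study had listed the hemangioblast and endothelium markers other than KDR from these same arrays, and also OTX2, MSGN1, DLL1, FOXC2 and WNT8A. SOX17 and HHEX, endoderm markers given further below, stood in that list too.

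Hb-eGFP+ cells had more transcript of the endothelial genes CDH5 and CLDN5, of the type II cadherin CDH22 and of the protocadherin PCDH17. They had less of the epithelial genes CDH1, CLDN1, CLDN3 and EPCAM, of the neural and mesodermal cadherin CDH2 and of CDH20. Other genes known from epithelia, CDH3, CLDN4, PCDH1 and CTNNA1, were not called. Among the probe sets of CDH22 and of CDH20, only the brightest was called. With limma (Benjamini-Hochberg adjustment over all 13051 genes, adjusted p under 0.05), 5 members were higher, or 8.2%, against 9.19% of all genes, and 10 were lower, or 16.4%, against 10.7% of all genes. In either direction the background was 19.9%. The median log2 fold change, Hb-eGFP+ over RFP+ control, was -0.03 over the members and 0.01 over all genes, with members in both directions. All 15 called members had arrays that did not overlap between the groups. Counting by overlap alone, 7 members lay higher on every Hb-eGFP+ array (11.5%, against 20.6% of all genes) and 13 lower (21.3%, against 18.8%). The stricter rule of the study's methods asks that the lower bound of the 90% interval of the ratio exceeds 1.7. It was applied with an interval computed here from the spread between arrays, which need not equal the study's own. So applied, it took 4 members as higher (6.56%, against 1.28% of all genes) and 6 as lower (9.84%, against 2.15%). CDH1, CDH2 and CDH5 had been listed by the study from these same arrays and are not independent evidence. The 36 members brighter than the median of all probe sets (89.3) held 5 higher (13.9%) and 9 lower genes (25%), where 11.1% and 12.7% of all genes as bright were called, and had a median of -0.11. Brightness was the mean log2 over all 6 arrays, so a gene could pass through the group where it was high. CDH20 passed in this way, with means of 73.1 in Hb-eGFP+ and 706 in RFP+ control cells. These shares are therefore a description only. The 25 dimmer members held 1 lower gene (4%, against 10.7% of all genes) and no higher one (against 9.19%). The share over equally dim genes was not computed, so these counts say nothing particular to the members.

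**Figure D1:**
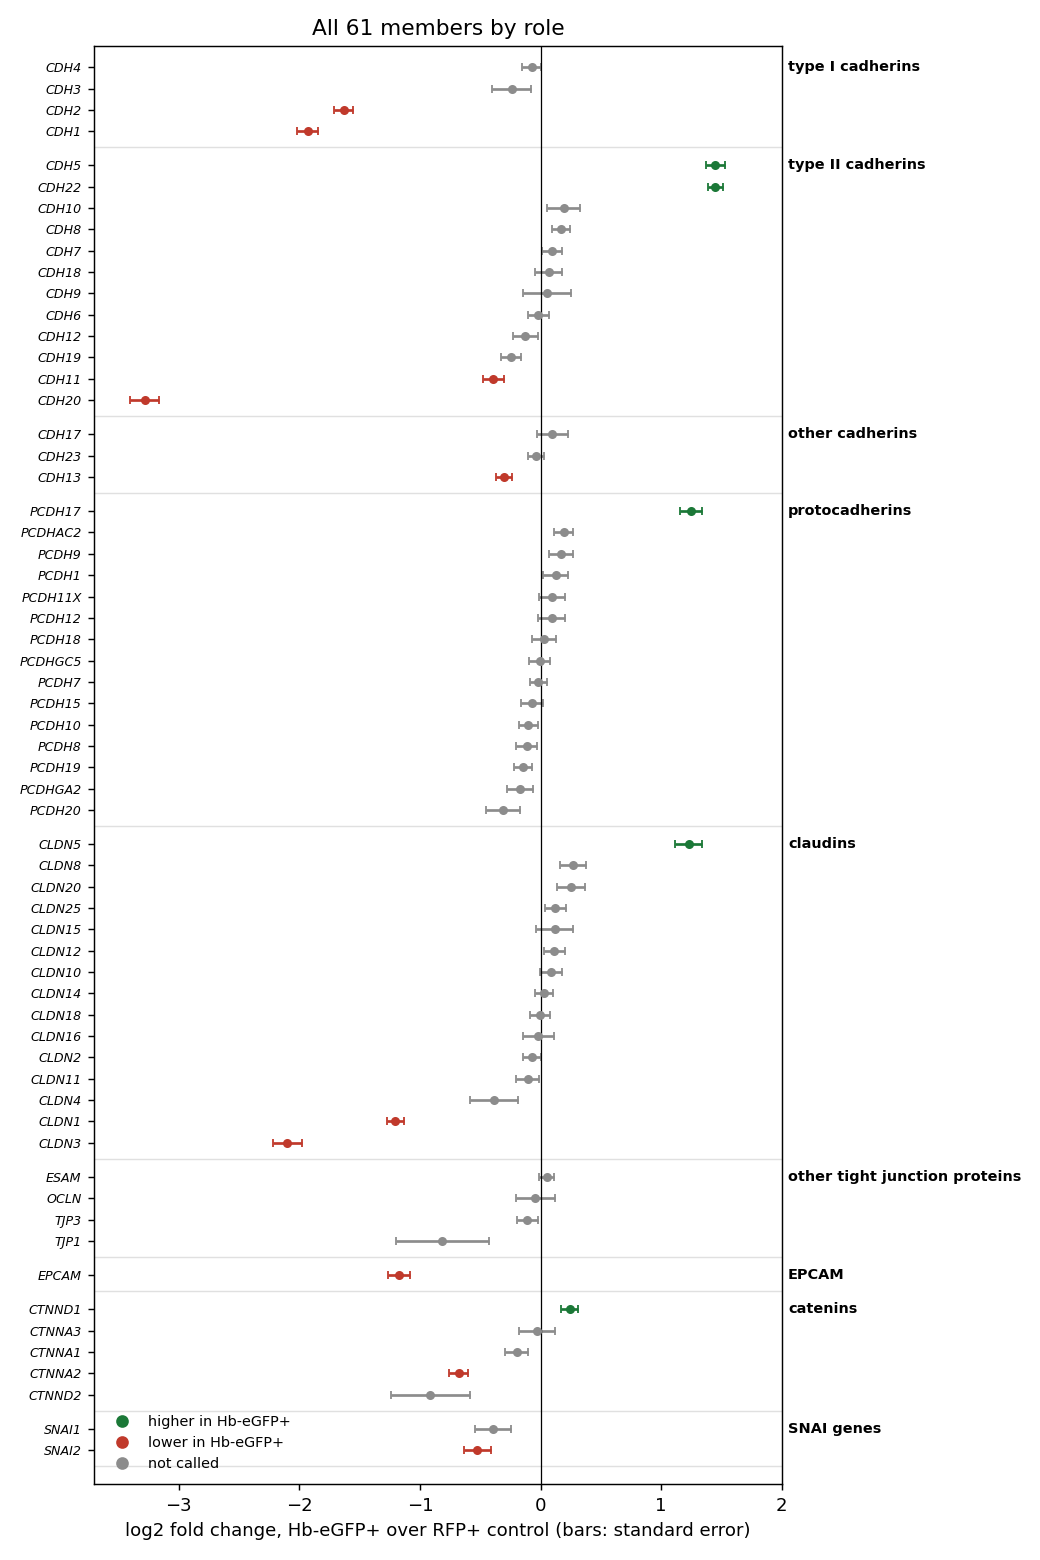
Log2 fold change of each of the 61 members, Hb-eGFP+ over RFP+ control, by role, with bars for the standard error. Green marks the 5 higher and red the 10 lower members, and the remaining 46 lie between -0.91 and 0.27.

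Of 4 type I cadherins, 2 were lower (50%, against 10.7% of all genes) and none was higher (against 9.19%). These classical adhesion cadherins of epithelia and of neural and mesodermal tissue had a median log2 fold change of -0.94. CDH1, the E-cadherin of epithelia, had intensities of 252, 207 and 240.5 in the Hb-eGFP+ arrays and 885, 907 and 869 in the RFP+ control arrays. The groups were far apart and each was tight, with means of 233 ± 23.4 and 887 ± 19.3 (SD, n = 3 each). CDH1 was thus 3.80-fold lower in Hb-eGFP+ cells (log2 fold change -1.93, SE 0.09, adjusted p = 8.5e-06). CDH2, the N-cadherin of neural tissue and mesoderm, read 1470.1, 1382 and 1285 in Hb-eGFP+ cells and 4076, 4161 and 4596 in RFP+ control cells. No array of either group came near the other, and CDH2 was 3.10-fold lower (log2 fold change -1.63, SE 0.08, adjusted p = 1.4e-05). Its signal was nevertheless well above the reporter probe sets in both groups. A further probe set of CDH2 was lower too, with 82.7, 113 and 92.4 in Hb-eGFP+ cells and 420.4, 445 and 291 in RFP+ control cells (log2 fold change -1.99, adjusted p = 0.00066).

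CDH3, the P-cadherin of epithelia and placenta, did not pass the test. It read 1506, 943 and 1048 in Hb-eGFP+ cells and 1311, 1382 and 1345 in RFP+ control cells (log2 fold change -0.24, adjusted p = 0.35). Hb-eGFP+ array 1 alone lay above all controls, and without it the log2 fold change was -0.44 (adjusted p = 0.018). CDH4, the R-cadherin first described in retina, read 115, 102 and 111 in Hb-eGFP+ cells and 108, 122 and 115 in RFP+ control cells, at the edge of the reporter signals and overlapping (log2 fold change -0.07, adjusted p = 0.57).

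Markers of other tissues were lower alongside CDH1 and CDH2, in part of each list. The summed intensity of the neuroectoderm markers was 1433 to 1582 in Hb-eGFP+ arrays and 10147 to 10267 in RFP+ control arrays, and that of the paraxial mesoderm markers 1208 to 1391 and 9791 to 10231. Of the endoderm markers, 5 of 7 were lower (71.4%, against 10.7% of all genes). HHEX, which is also known from blood and endothelial precursors, was higher. The endoderm sums were 17249 to 18473 and 20789 to 21498, or 8400 to 9192 and 16213 to 17306 without HHEX. Of the non-neural ectoderm markers, 3 of 6 were lower (50%, against 10.7% of all genes) and MSX1 was higher. Their sums were 3832 to 3996 and 4946 to 5092, or 863 to 928 and 2704 to 2863 without MSX1. For the primitive streak markers they were 5934 to 6216 and 9957 to 10529. HHEX and MSX1 were left out because they were higher, so the larger relative gap without them was fixed by that choice. DLX5, with means of 660 in Hb-eGFP+ and 2455 in RFP+ control cells, held most of the non-neural ectoderm sums without MSX1. The other lower markers of that list lay within the reporter range in both groups. They were DLX6 (means 58.7 in Hb-eGFP+ and 110 in RFP+ control cells) and GATA3 (19.5 and 40.85). With dim probe sets removed, that list kept 1 higher and 1 lower gene. Array intensities do not reach 0, but 15 of the 35 measured markers of these tissues lay within the reporter range in Hb-eGFP+ cells, against 8 in RFP+ control cells. The part of these tissues in the cadherin, claudin and catenin differences was not tested, and in sorted pools fewer cells of a type and less RNA per cell cannot be told apart.

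Type II cadherins, which differ from type I in the outer domain and are known best from endothelium, mesenchyme and brain, were split. Of 12, 2 were higher (16.7%, against 9.19% of all genes), 2 were lower (16.7%, against 10.7%) and 8 were not called. Their median was 0.06. CDH5, the VE-cadherin that holds endothelial adherens junctions together, had intensities of 5351, 6212 and 5476 in Hb-eGFP+ cells and 2118, 2046 and 2063 in RFP+ control cells. Every Hb-eGFP+ array was above every control array by a wide margin. The means of 5680 ± 465 and 2076 ± 37.8 gave a 2.74-fold higher level (log2 fold change 1.45, SE 0.08, adjusted p = 1.8e-05). The hemangioblast and endothelium markers that rose with it summed to 21778 to 22606 in Hb-eGFP+ arrays and 7981 to 8554 in RFP+ control arrays, and their part in the CDH5 difference was not tested.

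CDH22, a type II cadherin known mainly from rodent brain and pituitary, was also higher. It read 507, 513 and 497 in Hb-eGFP+ cells and 186, 191 and 180.0 in RFP+ control cells. The spread within each group was small, and the ratio was 2.72 (log2 fold change 1.45, SE 0.06, adjusted p = 7.1e-06). Another probe set of the gene did not follow, with 339, 266 and 312 in Hb-eGFP+ cells and 335, 282 and 302 in RFP+ control cells (log2 fold change -0.01, adjusted p = 0.98). The last one, at 0.14 (adjusted p = 0.62), was dim. The rise of CDH22 therefore rests on 1 of its 3 probe sets.

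CDH20, a type II cadherin known from the developing nervous system, had the lowest log2 fold change of all members. It read 60.3, 83.1 and 75.9 in Hb-eGFP+ cells and 747, 706 and 664 in RFP+ control cells (log2 fold change -3.28, SE 0.12, adjusted p = 3.5e-06). The Hb-eGFP+ values lie within the range of the reporter probe sets, so the ratio of 9.65 is not exact. A further probe set read 82.1, 154 and 62.7 in Hb-eGFP+ cells and 420.1, 149.9 and 133 in RFP+ control cells, with overlap and no call (log2 fold change -1.13). The remaining pair lay at -0.08 and -0.09 and were not called either, with means within the reporter range in both groups.

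CDH11, the cadherin of loose mesenchyme, was lower by less. Its intensities were 1001, 1023 and 1208 in Hb-eGFP+ cells and 1456, 1400.1 and 1368 in RFP+ control cells (log2 fold change -0.39, SE 0.09, adjusted p = 0.02). The groups did not overlap, but the call was lost without Hb-eGFP+ array 1 (adjusted p = 0.068) or 2 (0.056) and without RFP+ control array 1 (0.063) or 2 (0.054). Its further probe set had nearly the same log2 fold change, -0.38, and was not called (adjusted p = 0.16). Among the type II cadherins not called, CDH8 had a log2 fold change of 0.17 (adjusted p = 0.17). CDH19 read 75.9, 81.00 and 84.2 in Hb-eGFP+ cells and 90.7, 105 and 90.7 in RFP+ control cells (log2 fold change -0.24, adjusted p = 0.084). CDH6, CDH7, CDH9, CDH10, CDH12 and CDH18 had group means under 81 in both groups and log2 fold changes from -0.13 to 0.19.

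**Figure D2:**
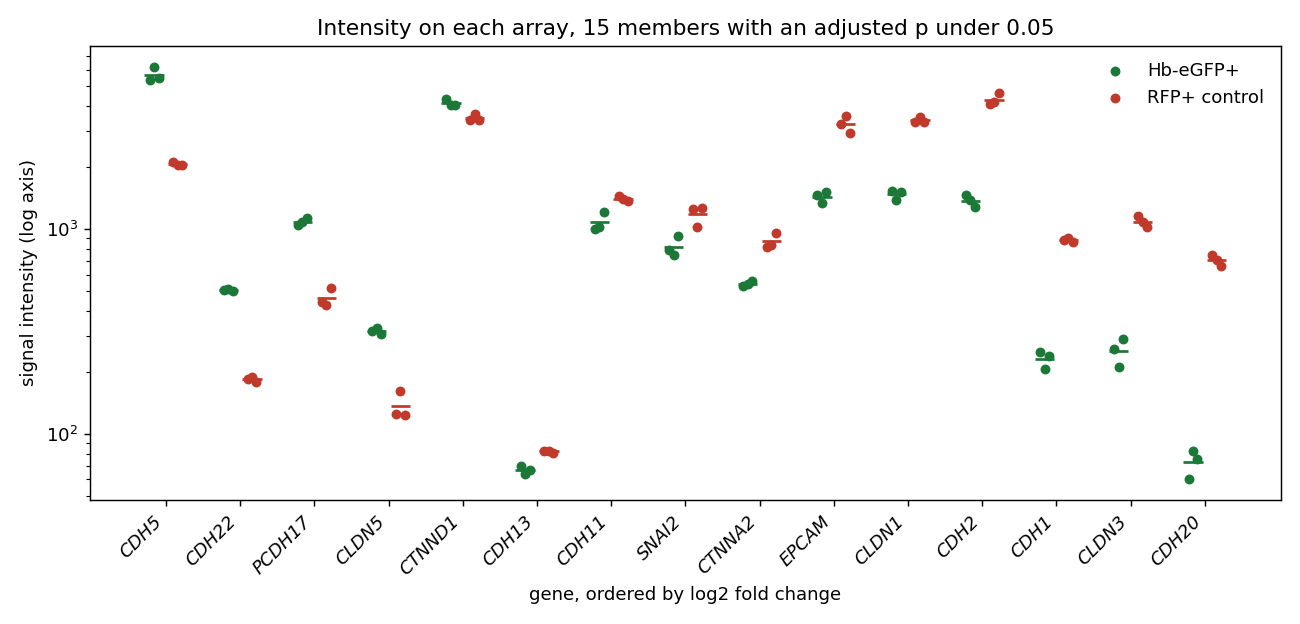
Signal intensity (log axis) of the 15 called members on each array, Hb-eGFP+ in green left of RFP+ control in red, with a line at each group mean (n = 3 each). The green and red points of a gene do not overlap for any of them. CDH20 and CDH13 have Hb-eGFP+ points below 114, the 95th percentile of the reporter probe sets.

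The cadherins CDH1, CDH2 and CDH5 were also set against each other within each array, which cancels the scaling of the array. Because probe sets differ in their response, only the change of such a difference between the groups can be read. CDH5 minus CDH1 was 4.41, 4.91 and 4.51 on the log2 scale in Hb-eGFP+ cells and 1.26, 1.17 and 1.25 in RFP+ control cells. The balance was thus higher for CDH5 on every Hb-eGFP+ array, by 3.38 (SE 0.15), a 10.4-fold change. CDH5 minus CDH2 was 1.86, 2.17 and 2.09 in Hb-eGFP+ cells and -0.94, -1.02 and -1.16 in RFP+ control cells, again without overlap. This difference was 3.08 (SE 0.11), or 8.47-fold. CDH2 minus CDH1 was 2.54, 2.74 and 2.42 in Hb-eGFP+ cells and 2.20, 2.20 and 2.40 in RFP+ control cells. The groups came close here without overlapping, and the difference of 0.30 (SE 0.12) was the smallest of the 3. Each contrast gave p = 0.1 in an exact permutation test, two-sided, which is the smallest that 20 assignments of 6 arrays allow and stays 0.1 after adjustment over the 3 contrasts. CDH5 was higher, and CDH1 and CDH2 lower, on every Hb-eGFP+ array, so the separation of both CDH5 contrasts was fixed beforehand. The 3 genes had been listed by the study from these same arrays, so the contrasts describe them and are not independent evidence. The difference for CDH2 minus CDH1 fell to 0.13 with an offset of 50 before log2 (exact p = 0.3).

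**Figure D3:**
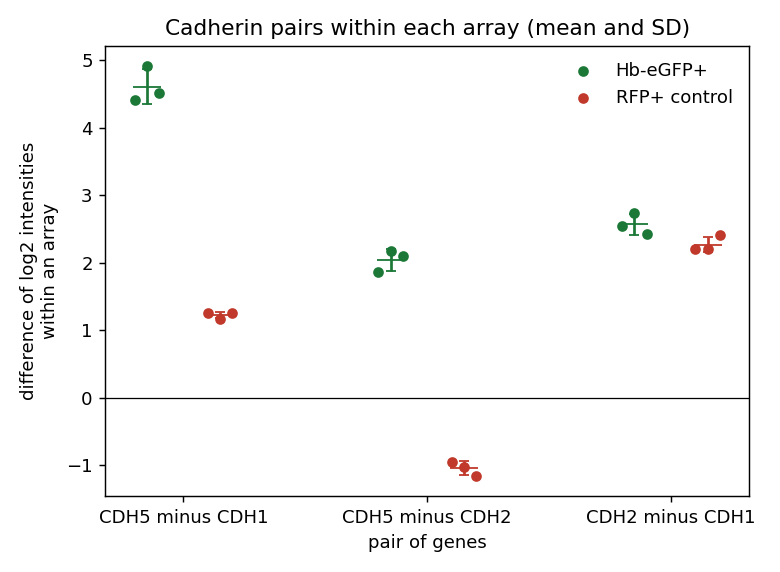
Difference of log2 intensities of 2 cadherins within an array, for Hb-eGFP+ (green, left) and RFP+ control arrays (red, right), with mean and SD (n = 3 each). The groups are separated by 3.38 for CDH5 minus CDH1, by 3.08 for CDH5 minus CDH2 and by 0.30 for CDH2 minus CDH1.

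Among the remaining 3 cadherins, CDH13, the T-cadherin, which is held to the membrane by a lipid anchor and has no inner tail, was lower and dim. It read 69.99, 64.01 and 66.5 in Hb-eGFP+ cells and 82.7, 82.97 and 81.1 in RFP+ control cells (log2 fold change -0.30, SE 0.07, adjusted p = 0.017). The groups were apart, yet both lay within the reporter range, and the call was lost without Hb-eGFP+ array 3 (adjusted p = 0.070) and without RFP+ control array 1 (0.060) or 2 (0.053). A further probe set of CDH13 was also called lower (adjusted p = 0.01), but at means of 14.6 in Hb-eGFP+ cells and 27.1 in RFP+ control cells it was below the reporter median, and another was at 0.04. CDH23, which links the stereocilia of hair cells, and CDH17, a cadherin of intestine and liver, were at -0.04 and 0.10 and were not called.

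Protocadherins, which lack the catenin-binding tail of the classical cadherins and are known best from the nervous system, numbered 15. Of these, 1 was higher (6.67%, against 9.19% of all genes) and none was lower (against 10.7%). The median was -0.01, and several of these genes were within the reporter range. The gene that rose was PCDH17, a non-clustered protocadherin known from brain circuits in mammals. It had intensities of 1043, 1088 and 1135 in Hb-eGFP+ cells and 441, 424 and 517 in RFP+ control cells. Every Hb-eGFP+ array was above every control array, and the ratio was 2.36 (log2 fold change 1.24, SE 0.09, adjusted p = 7.9e-05). A further probe set was higher as well, with 181, 189 and 214 in Hb-eGFP+ cells and 99.9, 100.4 and 102 in RFP+ control cells (log2 fold change 0.94, adjusted p = 0.00069), whereas the other 6 were not called.

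PCDH1, which is found in epithelia, gave a strong signal but no difference that passed the test. It read 1513, 1346 and 1329 in Hb-eGFP+ cells and 1358, 1390.0 and 1108 in RFP+ control cells, with overlap (log2 fold change 0.12, adjusted p = 0.46). PCDHGA2, of the clustered gamma group, was at -0.17 (adjusted p = 0.31). Isoforms of a protocadherin cluster share exons at their 3′ end, so PCDHGA2, PCDHGC5 and PCDHAC2 may read other isoforms too. PCDH12, a protocadherin of mammalian endothelium, read 92.1, 72.8 and 98.2 in Hb-eGFP+ cells and 79.3, 81.5 and 84.1 in RFP+ control cells, within the reporter range (log2 fold change 0.09, adjusted p = 0.62).

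PCDH9 and PCDH15 gave different answers by probe set. The brightest probe set of PCDH9 was not called (log2 fold change 0.17, adjusted p = 0.27), but a further one read 104, 93.97 and 90.1 in Hb-eGFP+ cells and 56.6, 63.1 and 48.6 in RFP+ control cells (log2 fold change 0.78, adjusted p = 0.0061), within the reporter range in both groups. For PCDH15, a hair cell protein, the brightest probe set was at -0.07 and a further one was called lower (log2 fold change -0.63, adjusted p = 0.0071), also within that range at means of 64.5 in Hb-eGFP+ cells and 99.3 in RFP+ control cells. The sizes of both are not exact. PCDH7, PCDH8, PCDH10, PCDH11X, PCDH18, PCDH19, PCDH20, PCDHGC5 and PCDHAC2 were between -0.31 and 0.19 and were not called.

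Of 15 claudins, 1 was higher (6.67%, against 9.19% of all genes), 2 were lower (13.3%, against 10.7%) and 12 were not called, with a median of 0.03. CLDN5, the main claudin of endothelium, had intensities of 319.6, 329 and 307 in Hb-eGFP+ cells and 126, 161 and 124 in RFP+ control cells. The groups were well apart, with a ratio of 2.33 (log2 fold change 1.23, SE 0.11, adjusted p = 0.00023). Its further probe set was higher too, with 136, 167 and 162 in Hb-eGFP+ cells and 77.9, 72.3 and 79.6 in RFP+ control cells (log2 fold change 1.01, adjusted p = 0.00098).

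The claudins that fell are known from epithelia. CLDN3, which tightens epithelial junctions, read 259, 213 and 292 in Hb-eGFP+ cells and 1158, 1079.7 and 1023 in RFP+ control cells. All Hb-eGFP+ arrays were far below the controls, and CLDN3 was 4.26-fold lower (log2 fold change -2.10, SE 0.12, adjusted p = 2.4e-05). CLDN1, the barrier claudin of skin and other epithelia, read 1534, 1382 and 1514 in Hb-eGFP+ cells and 3316, 3539 and 3337 in RFP+ control cells. It was 2.30-fold lower without overlap (log2 fold change -1.20, SE 0.07, adjusted p = 3.1e-05). CLDN4, an epithelial claudin often found with CLDN3, read 170.2, 169 and 157 in Hb-eGFP+ cells and 251, 264 and 152 in RFP+ control cells. RFP+ control array 3 was as low as the Hb-eGFP+ arrays, and the gene was not called (log2 fold change -0.39, adjusted p = 0.22), although it was without that array (-0.64, adjusted p = 0.0028). The further probe set of CLDN4 read 202, 167 and 187 in Hb-eGFP+ cells and 177, 173 and 187 in RFP+ control cells, with overlap (log2 fold change 0.05, adjusted p = 0.82).

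CLDN11, the claudin of myelin and testis, was at -0.11 with its brightest probe set, while a further one was called lower (adjusted p = 0.025) at means of 30.3 in Hb-eGFP+ cells and 46.0 in RFP+ control cells, near the reporter median. CLDN14, a claudin of the inner ear and kidney, was at 0.03. CLDN2, CLDN8, CLDN10, CLDN12, CLDN15, CLDN16, CLDN18, CLDN20 and CLDN25 had group means from 30.5 to 126 and log2 fold changes from -0.07 to 0.27, none called with all arrays. Without Hb-eGFP+ array 2, CLDN8 was called higher.

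EPCAM, an adhesion protein of epithelia that is no cadherin, was lower with all 3 of its probe sets. The brightest read 1471, 1338 and 1511 in Hb-eGFP+ cells and 3248, 3569.8 and 2954 in RFP+ control cells, 2.26-fold lower (log2 fold change -1.17, SE 0.09, adjusted p = 0.00011). No arrays overlapped between the groups, and the further probe sets were at -1.29 and -1.15.

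None of the other 4 tight junction genes was called. TJP1, the scaffold protein ZO-1, varied within both groups, with 198, 478 and 239 in Hb-eGFP+ cells and 738, 516 and 322 in RFP+ control cells (log2 fold change -0.81, SE 0.38, adjusted p = 0.18). Hb-eGFP+ array 2 lay among the controls, and without it the gene was lower (-1.19, adjusted p = 0.048). The further probe set of TJP1 leaned the other way, with 107, 116 and 92.3 in Hb-eGFP+ cells and 88.0, 79.0 and 87.4 in RFP+ control cells, and was not called (log2 fold change 0.31, adjusted p = 0.13). OCLN, which encodes occludin, read 26.8, 22.04 and 20.8 in Hb-eGFP+ cells and 27.2, 26.2 and 18.8 in RFP+ control cells, below the median of the reporter probe sets, so no statement on it is possible. ESAM, an immunoglobulin-type adhesion protein of endothelium in mammals, read 133, 137 and 130.1 in Hb-eGFP+ cells and 127, 132 and 127 in RFP+ control cells, barely above the reporter range (log2 fold change 0.05, adjusted p = 0.63). TJP3, the related scaffold ZO-3, was at -0.11 (adjusted p = 0.43).

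Among the 5 catenins, 1 was higher (20%, against 9.19% of all genes) and 1 lower (20%, against 10.7%). CTNNA2, the alpha-catenin of neural tissue, read 529, 540.0 and 558 in Hb-eGFP+ cells and 817, 840.4 and 955 in RFP+ control cells. The groups were apart (log2 fold change -0.68, SE 0.08, adjusted p = 0.0009), and 1 of its further probe sets was lower as well (-0.81, adjusted p = 0.0032) while the other was at 0.04. CTNNA1, the alpha-catenin of epithelia, was at -0.20 (adjusted p = 0.20), and at -0.30 without Hb-eGFP+ array 2 (adjusted p = 0.041). CTNNA3, the alpha-catenin of heart muscle, was within the reporter range.

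CTNND1, the p120-catenin that holds cadherins at the membrane, read 4311, 4026 and 4018 in Hb-eGFP+ cells and 3404, 3647 and 3401 in RFP+ control cells. The groups were apart by a ratio of only 1.18 (log2 fold change 0.24, SE 0.07, adjusted p = 0.046) and the call was lost in 9 of 13 alternatives. Leaving out any 1 array ended it, with adjusted p of 0.12, 0.072 and 0.11 without Hb-eGFP+ arrays 1, 2 and 3 and of 0.14, 0.060 and 0.10 without RFP+ control arrays 1, 2 and 3. CTNND2, the delta-catenin of neurons, read 198, 171 and 158 in Hb-eGFP+ cells and 480.3, 408 and 182 in RFP+ control cells. RFP+ control array 3 was again low, as for CLDN4 and TJP1, and the gene was not called (log2 fold change -0.91, SE 0.33, adjusted p = 0.096), while without that array it was (-1.34, adjusted p = 0.00097). A further probe set of CTNND2 was lower with all arrays, at 111, 134 and 115 in Hb-eGFP+ cells and 249, 252 and 234 in RFP+ control cells (log2 fold change -1.03, adjusted p = 0.00063), and another was called lower within the reporter range (adjusted p = 0.015).

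SNAI1 and SNAI2 encode zinc finger repressors, of which CDH1 is a known target, and SNAI2 is known in chick from the primitive streak and neural crest. SNAI2 read 788, 751 and 920.5 in Hb-eGFP+ cells and 1247, 1027 and 1266 in RFP+ control cells. It was lower without overlap (log2 fold change -0.52, SE 0.11, adjusted p = 0.016), but the call was lost without Hb-eGFP+ array 1 (adjusted p = 0.064) or RFP+ control array 3 (0.053). SNAI1 read 918, 1095 and 876 in Hb-eGFP+ cells and 1561, 1169 and 1089 in RFP+ control cells. The groups overlapped and SNAI1 was not called (log2 fold change -0.39, adjusted p = 0.11). CDH1 and SNAI2 were both lower in Hb-eGFP+ cells, and a link between them was not tested.

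There were 135 probe sets for the 61 genes, and 38 genes had several. Of the 24 further probe sets of 10 called members, 7 had the same call, 17 were not called and 0 had the opposite call. The remaining 5 called members, CDH1, CDH5, CLDN1, CLDN3 and SNAI2, had 1 probe set each, so that no second reading exists for them. Of the 50 further probe sets of members not called, 5 were called, namely those of PCDH9, PCDH15, CLDN11 and CTNND2 given above. Of the 12 called further probe sets, 5 were within the reporter range in both groups. Of all 74 further probe sets, 58 were dimmer than the median of the array.

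**Figure D4:**
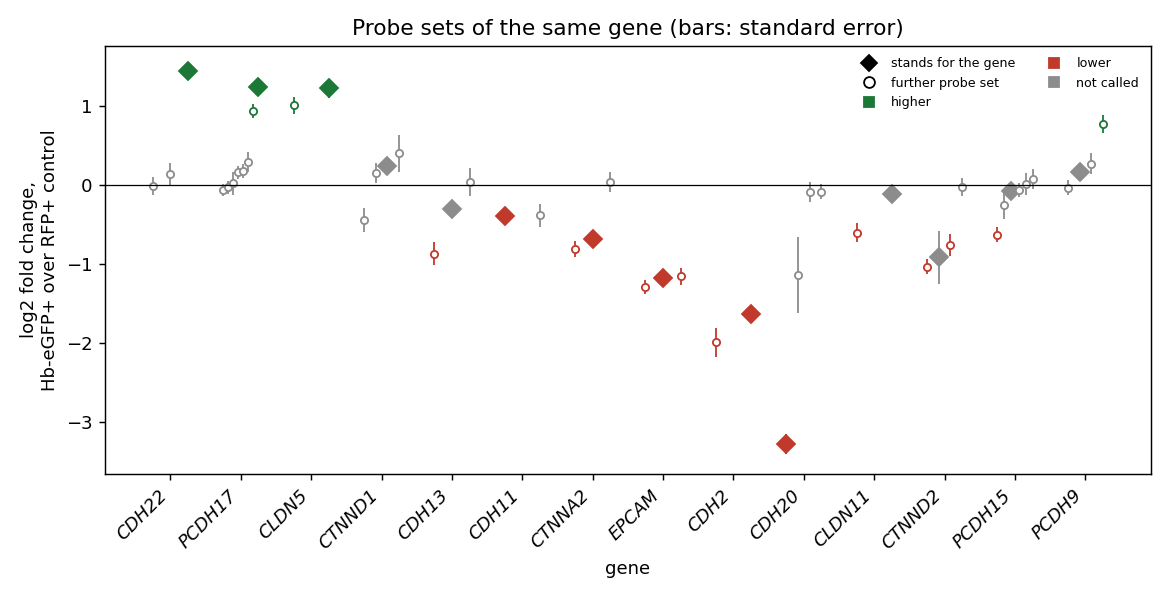
Log2 fold change of each probe set, Hb-eGFP+ over RFP+ control, for members with several probe sets of which at least 1 was called, with standard errors. Diamonds are the probe sets that stand for the gene and circles the further ones, coloured by the fit over all probe sets, in which the diamonds of CTNND1 and CDH13 are not called. EPCAM and CDH2 agree over all their probe sets, while CDH22, CDH20 and most of PCDH17 do not.

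Several members are neighbours in the chicken genome, by the gene order of the RefSeq table. CDH5 and CDH11 have 0 protein-coding genes between them, yet CDH5 was higher and CDH11 lower in Hb-eGFP+ cells. CDH1 is next to CDH3 and CLDN1 next to CLDN16, and in both pairs only the first was called, though a difference between neighbours was not tested. CLDN3 and CLDN4, with 1 gene between them, were at -2.10 and -0.39. PCDH17 lies between PCDH20 and PCDH8, with 2 genes on either side, and these were at -0.31 and -0.12, neither called.

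Genes that work with the members were counted in 6 lists. Of 11 measured adherens junction partners, 3 were lower (27.3%, against 10.7% of all genes) and none was higher, with a median log2 fold change of -0.12. With the mean over probe sets 1 was lower, as PLEKHA7 (adjusted p = 0.50) and AFDN (0.24) lost their calls, and with the intensity trend and robust variances 5 were. The lower ones were NECTIN3, a membrane adhesion protein that binds AFDN (log2 fold change -1.09, adjusted p = 7e-05), PLEKHA7, which joins p120-catenin to microtubules (-0.99, adjusted p = 0.0017), and the actin linker AFDN itself (-0.55, adjusted p = 0.03). The AFDN call was lost without RFP+ control array 2 (adjusted p = 0.084) or 3 (0.084). CTNNB1, the beta-catenin that binds the tails of classical cadherins, read 9144, 9134 and 9186 in Hb-eGFP+ cells and 9984, 10012 and 9776 in RFP+ control cells. Although these groups did not overlap, the difference was small and not called (log2 fold change -0.12, adjusted p = 0.22).

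Of 27 tight junction and polarity partners, 6 were lower (22.2%, against 10.7% of all genes) and 1 was higher (3.7%, against 9.19%), with a median of -0.16. With the mean over probe sets 5 were lower and none was higher, and DLG1 (adjusted p = 0.45), MAGI3 (0.11), PATJ (0.082) and MAGI2 (0.99) lost their calls. MAGI1, a scaffold of epithelial and endothelial junctions, read 1514, 1512 and 1633 in Hb-eGFP+ cells and 3485, 3395 and 3096 in RFP+ control cells (log2 fold change -1.10, adjusted p = 6e-05). PATJ, of the Crumbs polarity complex, was at -0.93 (adjusted p = 0.00033), and the Scribble complex gene DLG1 at -0.52 (adjusted p = 0.0013). The others were TMEM47, MAGI3 and PRKCZ, and PRKCZ lost its call in 7 of the alternatives. The higher gene was MAGI2, a related scaffold, with 267, 257 and 237 in Hb-eGFP+ cells and 175, 186 and 172 in RFP+ control cells (log2 fold change 0.51, adjusted p = 0.0028), but of its further probe sets, all dim, 1 was lower and 3 were not called. None of the 6 further probe sets of PATJ and none of the 5 of PLEKHA7 was called.

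Of 16 atypical cadherins and related genes, 2 were lower (12.5%, near the 10.7% of all genes), the synaptic calsyntenin gene CLSTN1 (log2 fold change -0.39, adjusted p = 0.0039) and the receptor kinase gene RET (-0.65, adjusted p = 0.0048), and the median was -0.02. CLSTN1 lost its call with the mean over probe sets (adjusted p = 0.083), and RET was within the reporter range. Of 7 desmosome genes, 2 were higher (28.6%, against 9.19% of all genes) and the median was also -0.02. DSC1, a desmosomal cadherin, read 94.5, 75.7 and 88.8 in Hb-eGFP+ cells and 59.3, 62.9 and 66.00 in RFP+ control cells, within the reporter range (log2 fold change 0.46, adjusted p = 0.016). DSP, which anchors keratin, was at 0.33 (adjusted p = 0.02). Neither was called without Hb-eGFP+ array 3 (adjusted p = 0.064 for DSC1 and 0.085 for DSP) or without RFP+ control array 1 (0.051 for DSC1 and 0.064 for DSP). DSC1 was also lost without Hb-eGFP+ array 1 (0.053), and DSP without Hb-eGFP+ array 2 (0.054) or RFP+ control array 3 (0.055). With the mean over probe sets DSP lost its call too (adjusted p = 0.21), and neither of its further probe sets was called (0.43 and 0.65).

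Of 16 regulators of the epithelial-mesenchymal transition, 5 were lower (31.2%, against 10.7% of all genes), with a median of -0.20. Another 2 were higher (12.5%, near the 9.19% of all genes). Of the lower genes, TCF3 (log2 fold change -0.29, adjusted p = 0.029) lost its call with the replicate block (adjusted p = 0.075). It also lost it without any 1 array other than Hb-eGFP+ array 1 (adjusted p from 0.061 to 0.11). FOXC2 and TWIST1, mesodermal transcription factors, were at -2.73 (adjusted p = 5e-06) and -1.38 (adjusted p = 7.5e-06). PRRX1 was at -0.88 (adjusted p = 0.00014). The remaining lower gene was ESRP2, an epithelial splicing regulator, at -1.75 (adjusted p = 7.5e-06). Its further probe set, within the reporter range, was not called (adjusted p = 0.63). FOXC2 also stands in the paraxial mesoderm list. ZEB1, a repressor of CDH1 in mammals, read 1750, 1947 and 1821 in Hb-eGFP+ cells and 1169, 1124 and 1027 in RFP+ control cells. It was higher (log2 fold change 0.73, adjusted p = 0.00059). Of its 3 further probe sets, 1 was bright and higher, with means of 1156 in Hb-eGFP+ and 682 in RFP+ control cells (adjusted p = 0.0018). Another was lower at means of 17.7 and 24.2, below the reporter median. The last was not called and lay within the reporter range. The matrix protease gene MMP2 was higher too (0.52, adjusted p = 0.009).

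Of 10 genes in the endothelial junction list, 5 were higher (50%, against 9.19% of all genes) and none was lower, with a median of 0.43. CDH5, CLDN5 and ESAM are members described above. The higher genes other than CDH5 and CLDN5 encode a secreted protein and receptors. EGFL7, a secreted vascular protein, read 1201, 1133 and 1088 in Hb-eGFP+ cells and 663, 624 and 692 in RFP+ control cells (log2 fold change 0.79, adjusted p = 0.00028). The TGF-beta co-receptor gene ENG was at 0.72 (adjusted p = 0.00058) and the angiopoietin receptor gene TEK at 0.85 (adjusted p = 0.001), both without overlap. PECAM1, an adhesion gene of endothelium and blood cells, was dim and not called (log2 fold change 0.14, adjusted p = 0.39), nor were PTPRB, TIE1 and MCAM.

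**Figure D5:**
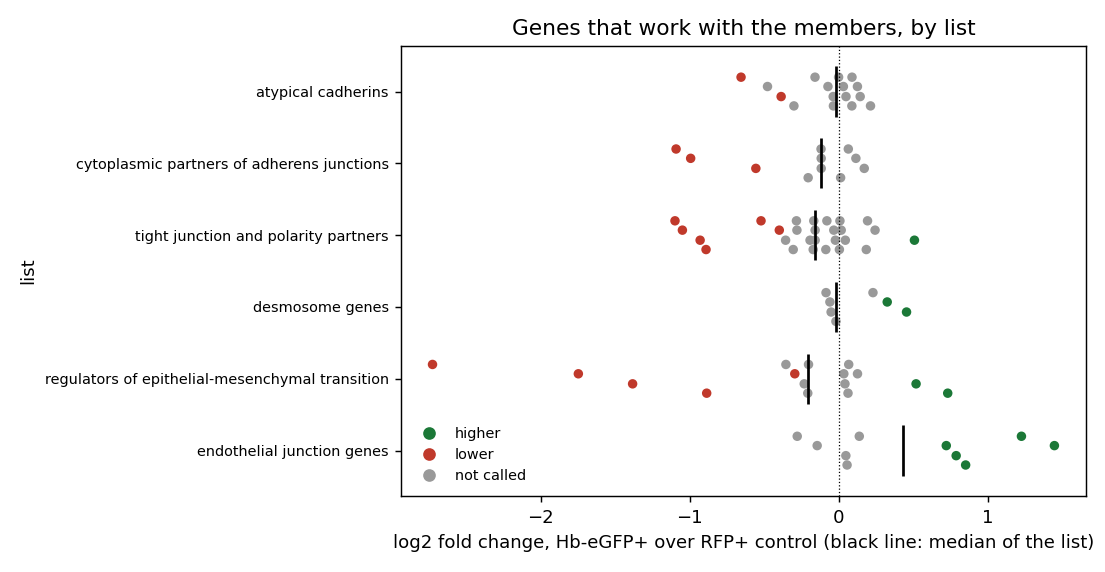
Log2 fold change of each gene in the 6 lists, Hb-eGFP+ over RFP+ control, with a black line at the median of the list and a dotted line at 0. Green marks higher, red lower and grey uncalled genes. The endothelial junction list has 5 higher and no lower gene, and the tight junction and polarity list 1 higher and 6 lower.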

How the data were processed

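RNA of 3 Hb-eGFP+ and 3 RFP+ control samples (40 ng of total RNA each, amplified in 2 cycles), sorted from 3 pools of embryos, was hybridised to Affymetrix Chicken Genome Arrays. The authors analysed the scanned arrays with GCOS 1.4 and dChip and deposited 1 model-based index per probe set (Perfect Match-only), a linear signal intensity. The indices come from normalized arrays, and which normalization was chosen is not given in the sources used. For the present report, log2 intensities were compared with limma 3.58.1 (lmFit and eBayes, two-sided, group as the only term) in R 4.3.3 over 13051 genes, and p-values were adjusted by Benjamini and Hochberg's method (threshold 0.05). Adjusted p-values of further probe sets come from a fit over all 38439 probe sets. No array was normalized again, and the lowest value was 1. The script was checked on simulated data. The number of arrays limits the precision.

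Gene IDs from the platform annotation, in which 27168 probe sets have 1 gene, 177 several and 11094 are not named here, were found in the RefSeq table of assembly GRCg7b for 26853 probe sets. It served for names and gene order only. Of 158 entries in 12 lists, 130 matched a measured gene. Named genes are CDH1, CDH2 and CDH5, all called members, the 2 brightest uncalled members of each role group, members whose probe sets differ in their call, and the first genes of each pathway list by adjusted p. PCDH12, TJP3, CTNNA3, CDH6, CTNNB1, PECAM1 and the other genes given beside these fall outside that rule and, like the neighbouring pairs, were picked once values had been seen. The members and lists were chosen with earlier results of these data known.

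For the methods' rule, a 90% interval of the ratio of group means was computed from the spread between arrays. Normal quantiles were used, which with 3 arrays per group give a narrower interval than t quantiles would. The authors' own bound was not recomputed. As alternatives, the arrays were median-centred or quantile-normalized, dim probe sets were removed, 50 was added before log2, limma's trend and robust options were used, the replicate number was entered as a block, 1 array at a time was left out, and probe sets of a gene were averaged. Samples are labelled as biological replicates. No sequence of a promoter or protein was used. Python 3.11.15, pandas 2.3.3, NumPy 2.4.6, SciPy 1.17.1 and matplotlib 3.10.9 were used.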

Additional observations from a re-analysis of the deposited data

How the results depend on the processing

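CDH1, CDH2, CDH5, CDH20, CDH22, CLDN1, CLDN3, CLDN5, CTNNA2, EPCAM and PCDH17 kept their direction and their call under every limma alternative run. CDH11, CDH13, SNAI2 and CTNND1 did not. The number of lower members was 6 under the methods' bound as computed here, against 10 with limma. With the mean over probe sets, PCDH9 became higher and CLDN11 and CTNND2 lower, while the log2 fold changes of CDH20 (-1.15), CDH22 (0.53) and PCDH17 (0.34) shrank and stayed called. Both populations were sorted from the same pools, but the labels do not say whether equal numbers mark the same pool. The numbers were therefore not taken as pairs in the main comparison. The deviations of arrays of the same number correlated at -0.12, -0.05 and 0.10, which cannot decide whether they are pairs. With the replicate block there were 4 higher and 8 lower members, and CTNND1 (adjusted p = 0.10), CDH11 (0.051) and CDH13 (0.051) lost their calls. CTNND1 also lost its call with quantile normalization (adjusted p = 0.053).

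With each array left out in turn, higher members numbered 4 to 5 and lower members 8 to 11. Log2 fold changes were -1.99 to -1.85 for CDH1, -1.68 to -1.58 for CDH2 and 1.38 to 1.49 for CDH5, and the contrasts 3.23 to 3.48 for CDH5 minus CDH1, 3.02 to 3.17 for CDH5 minus CDH2 and 0.21 to 0.37 for CDH2 minus CDH1. With an offset of 50 before log2, CDH5 minus CDH1 was 3.16 and CDH2 minus CDH1 0.13 (exact p = 0.3), and with the mean over probe sets CDH5 minus CDH2 was 3.26 and CDH2 minus CDH1 0.12 (exact p = 0.7). Signs were followed for the members that the rule for named genes takes in, and among these they changed for uncalled genes alone. CDH17 was at -0.024 to 0.23 and CLDN14 at -0.010 to 0.086 over the omitted arrays. The lowest values came without Hb-eGFP+ replicate 3 for CDH17 and without RFP+ control replicate 1 for CLDN14. With the mean over probe sets, CDH23 was at 0.058, CDH4 at 0.069 and CLDN14 at -0.13. Signs of members outside that rule are not given. Of the list genes, MAGI2 was at -0.0019 with the mean over probe sets. The cause of these changes was not tested. Over all genes, 46.2% of the calls were higher, against 52.3% with quantile normalization and 50.7% with median centring. Genes near the reporter signals, 27 of the 61 members, allow no statement on a level.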
